A study of Mus musculus with 6 samples.

Results

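Transcripts of 9 genes that start or restrain blood clotting at the vessel wall were followed in sinusoidal endothelial cells isolated from mouse livers, with and without cyclic stretch. The genes were taken by symbol from the deposited count table, and all 9 were found among its 23337 genes. They were F3, F8 and Vwf on the procoagulant side, Thbd, Procr, Tfpi and Pros1 on the anticoagulant side, the protease inhibitor gene Tfpi2, a relative of Tfpi, and the matricellular gene Thbs1. The cells were obtained with an immunomagnetic bead procedure, cultured on collagen IV-coated Flexcell plates and starved of serum. Control cells were left unstretched (replicates 2, 3 and 4), and stretch cells received 4% cyclic stretch at 1 Hz (replicates 1, 2 and 4). The mice's strain and age, the duration of stretch and the origin of replicates (1 mouse or several) were not stated in the labels, so p-values measure only the spread between these libraries.

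Clotting is started by tissue factor, the product of F3, which binds factor VII and activates factor X. Thrombin then activates factor VIII, which circulates bound to von Willebrand factor. The endothelium holds this back with tissue factor pathway inhibitor (Tfpi), with thrombomodulin (Thbd) and the endothelial protein C receptor (Procr), which together let thrombin activate protein C, and with protein S (Pros1), the cofactor of activated protein C. In the liver, sinusoidal endothelial cells are a main source of factor VIII, while most soluble clotting factors are made by hepatocytes.

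Total gene counts lay between 48948948 and 68489956 per library. The cells carried endothelial transcripts: 8 pan-endothelial markers, among them Cdh5 and Pecam1, summed to overlapping values between 7167 and 8218 CPM (read counts scaled to a common library size, with TMM factors), with 5 of the 8 called lower after stretch (Kdr, Tek, Tie1, Erg and Egfl7) and 0 higher. The 10 sinusoidal markers, such as Stab2 and Lyve1, summed to between 8203 and 9307 CPM in control and between 6056 and 7094 CPM in stretch libraries, with 8 of the 10 lower and none at 0. The exceptions, Lyve1 and Flt4, were not called (log2 fold change 0.13 and -0.09, edgeR adjusted p = 0.170 and 0.545). The 12 hepatocyte markers, 8 of them higher and none at 0, summed to between 88.4 and 113 CPM in control libraries and to 748, 179.5 and 164 CPM in stretch libraries. Macrophage markers summed to between 78.0 and 92.8 CPM in control and between 110.2 and 151 CPM in stretch libraries. The 5 leukocyte markers, of which Ms4a1 and Nkg7 were at 0, summed to between 0.45 and 0.97 CPM in control and between 1.19 and 1.76 CPM in stretch libraries. For the sinusoidal, hepatocyte, macrophage and leukocyte sums the control and stretch ranges did not meet (exact permutation test, two-sided, 3 libraries against 3: p = 0.1 for each, the lowest possible; 0.2 after adjustment over the 8 marker lists). Below, values of single libraries are listed in the order of replicates 2, 3 and 4 for control and of replicates 1, 2 and 4 for stretch.

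Stretched cells had higher transcript levels of Tfpi2 and of the protein C pathway receptors Thbd and Procr, and lower levels of F8 and Tfpi. Thbs1 was also higher, with a call that did not last in every setting, and F3, Vwf and Pros1 did not pass the test. In all, 4 of the 9 genes were called higher and 2 lower by edgeR's quasi-likelihood test at a Benjamini-Hochberg adjusted p of 0.05 over all genes tested. This is 66.7% of the members, against 44.0% of the 14222 genes tested (21.4% higher and 22.6% lower). The members were chosen with earlier results of these data known, so these shares are not an independent comparison. With library sizes alone as scaling the share of higher among called genes fell from 48.6% to 32.7%, and among the members 3 were higher and 3 lower, since Thbs1 lost its call and Pros1 gained one as lower. The median log2 fold change of the 9 genes was -0.12, and that of all genes tested was -0.01. The median absolute log2 fold change was 0.40 for the 9 genes and 0.26 for all genes tested. Control and stretch CPM did not overlap in 5 of the 9 genes, against 55.9% of genes tested. In the authors' deposited table the false discovery rate was under 0.05 for 6 of the 9 genes, at most 0.0260 for Thbs1. That table comes from the same 6 libraries and is not an independent check, and its share over all genes was not counted.

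**Figure D1:**
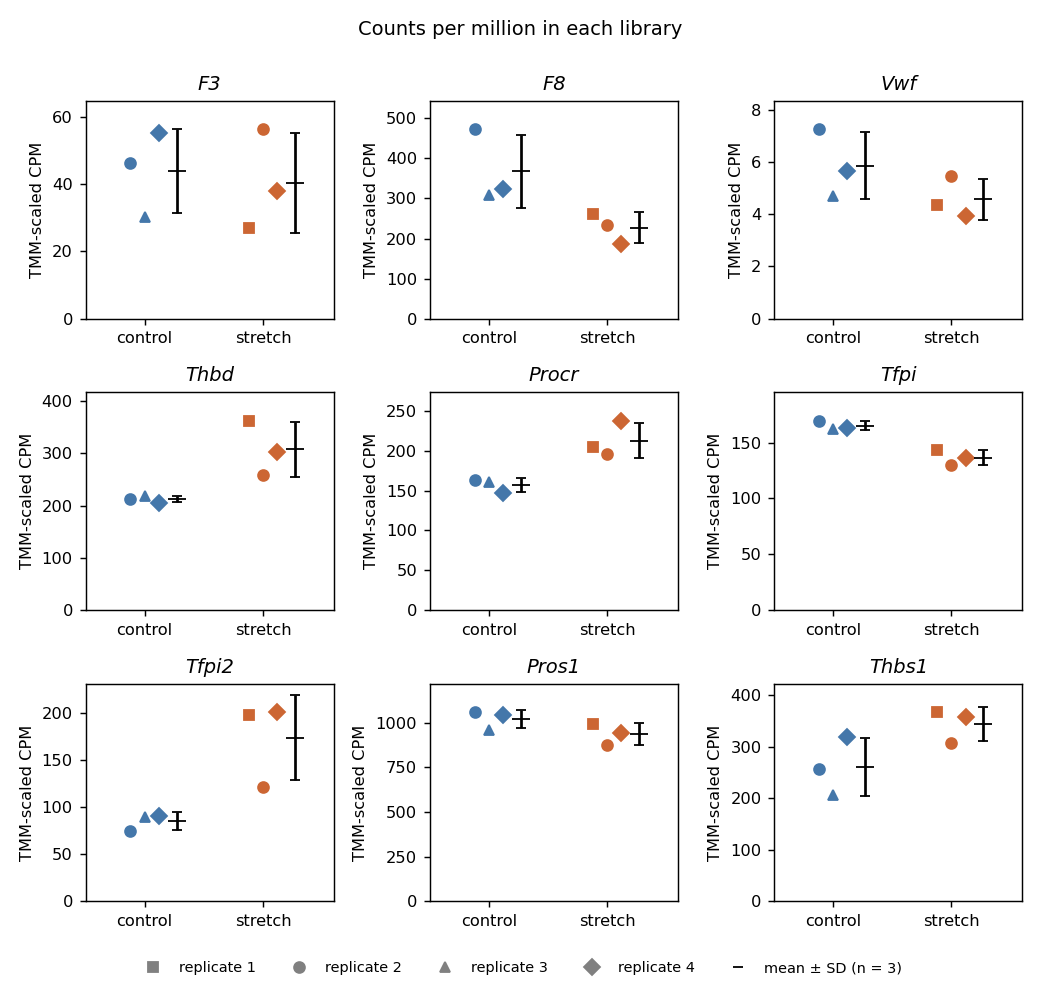
TMM-scaled CPM (y axis, from 0) of the 9 genes in each control and stretch library, with the marker shape giving the replicate number and black bars the mean ± SD of 3 libraries. The groups separate for F8, Thbd, Procr, Tfpi and Tfpi2 and overlap for F3, Vwf, Pros1 and Thbs1.

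Upstream sequence was matched by symbol in the RefSeq promoter table (GRCm38.p6) for 6 members: F3, F8, Procr, Tfpi, Tfpi2 and Pros1. Thbd, Vwf and Thbs1 were not matched. The 250 bases before the start site are shown for the 2 matched genes that rose, the 2 that fell, and F3, so that the windows can be read beside the changes below. Where the table had several starts, the one nearest to the deposited gene end was taken. In GENCODE vM21 the genes F8, Tfpi2, Tfpi and Procr begin further upstream, at 75382615, 3988919, 84476775 and 155751117. The F8 and Tfpi2 windows thus lie within those annotated genes, and the Tfpi and Procr windows lie there in part. Each is written 5′ to 3′ on the strand of its gene, and capitals mark matches on either strand to TGANTCA (AP-1), CCNCNCCC (KLF), GCGNGGGCG (EGR1) or TATAAA.
Tfpi2, chr6:3968376-3968625, minus strand: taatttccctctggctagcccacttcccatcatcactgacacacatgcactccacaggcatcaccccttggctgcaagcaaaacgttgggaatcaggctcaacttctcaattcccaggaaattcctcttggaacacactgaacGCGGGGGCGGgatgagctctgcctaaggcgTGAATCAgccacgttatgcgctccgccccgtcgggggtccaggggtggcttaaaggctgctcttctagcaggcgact
Procr, chr2:155750967-155751216, plus strand: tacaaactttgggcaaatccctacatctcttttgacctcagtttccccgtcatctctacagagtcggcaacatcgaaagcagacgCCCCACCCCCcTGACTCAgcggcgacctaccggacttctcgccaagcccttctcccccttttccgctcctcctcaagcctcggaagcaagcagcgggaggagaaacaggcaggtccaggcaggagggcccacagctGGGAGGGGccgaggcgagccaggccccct
F3, chr3:121723287-121723536, plus strand: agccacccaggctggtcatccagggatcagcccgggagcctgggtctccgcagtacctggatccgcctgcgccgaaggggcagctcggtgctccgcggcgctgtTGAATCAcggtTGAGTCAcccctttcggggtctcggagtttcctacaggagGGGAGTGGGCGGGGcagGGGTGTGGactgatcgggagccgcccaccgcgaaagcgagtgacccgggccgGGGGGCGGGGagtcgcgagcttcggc
F8, chrX:75380042-75380291, minus strand: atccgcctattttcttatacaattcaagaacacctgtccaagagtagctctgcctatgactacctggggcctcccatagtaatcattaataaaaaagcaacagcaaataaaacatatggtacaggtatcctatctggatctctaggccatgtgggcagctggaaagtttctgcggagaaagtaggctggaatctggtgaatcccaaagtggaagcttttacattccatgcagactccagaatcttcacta
Tfpi, chr2:84476760-84477009, minus strand: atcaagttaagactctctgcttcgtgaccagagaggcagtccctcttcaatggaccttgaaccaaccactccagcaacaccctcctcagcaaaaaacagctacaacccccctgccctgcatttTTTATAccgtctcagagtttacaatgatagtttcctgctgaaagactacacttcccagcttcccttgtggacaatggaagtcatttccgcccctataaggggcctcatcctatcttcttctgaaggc

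An AP-1 match lay in 3 of the 6 windows. Tfpi2 had it from -77 to -71 relative to the start site, Procr from -154 to -148, and F3 had 2 matches, from -146 to -140 and from -135 to -129. Over all 32851 windows of this table, 6.75% held such a match. The KLF letters were found in the windows of F3, Procr, Tfpi2 and Pros1, and in 45.9% of all windows. In Tfpi2 the KLF match overlaps the single EGR1 match, from -107 to -99, a motif found in 4.70% of all windows. Tfpi had the single TATAAA match, from -127 to -122 on the strand opposite to the gene, letters present in 12.4% of all windows. The letters of GATA factors, AGATAA (in 9.99% of all windows), and the NF-kB consensus (in 3.90%) were not matched in these 6 windows. The windows of F8 and Tfpi had 42.8% and 48.4% G and C, and those of F3, Procr and Tfpi2 had 70.0%, 61.6% and 56.4%. The window of Pros1, which did not pass the test, had 64.4%, and the median over all windows was 52.4%. A match is a run of letters and not evidence that a factor binds there.

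Of the procoagulant genes, F8 fell and F3 and Vwf did not pass the test. F8, which encodes the cofactor of factor IX (chromosome X, 75172715 to 75380041), had 473, 307 and 324 CPM in control and 261, 233 and 185 CPM in stretch libraries. Control replicate 2 was the highest, and each stretch library lay below each control library. The mean fell from 368 ± 91.0 to 227 ± 38.4 CPM (SD, n = 3 per group). This was a 1.62-fold decrease (log2 fold change -0.70 ± 0.17, SE), with an edgeR adjusted p of 0.0118. Without control replicate 2 the log2 fold change was -0.48 (adjusted p = 0.0297), and the call was lost when a change above 1.2-fold was asked for (glmTreat adjusted p = 0.0505; 17.8% of all genes tested passed this, and 3 of the 9 members). In bulk RNA, fewer cells of a type and less RNA per cell cannot be told apart, and 8 of the 10 sinusoidal markers fell alongside F8. Their part in the result was not tested.

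F3, the gene of tissue factor (chromosome 3, 121723537 to 121735052), varied as much within groups as between them. It had 46.2, 30.4 and 55.2 CPM in control and 27.04, 56.4 and 37.95 CPM in stretch libraries. The highest and the lowest of the 6 values were both stretch libraries. The log2 fold change was -0.12 ± 0.27 (SE; edgeR adjusted p = 0.762), and its sign turned without control replicate 4 (0.08) or stretch replicate 1 (0.11). Cells other than endothelium also make tissue factor, and the summed markers of stellate cells and fibroblasts (9 genes) overlapped between groups, at 82.5 to 93.6 CPM in control and 65.5 to 108 CPM in stretch libraries.

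Vwf, whose product tethers platelets and carries factor VIII (chromosome 6, 125552963 to 125686677), was the scarcest of the 9 genes. Its raw counts were 429, 238 and 302 in control and 242, 371 and 222 in stretch libraries. As CPM these were 7.26, 4.71 and 5.64 against 4.34, 5.47 and 3.95. The ranges overlapped, since stretch replicate 2 lay above control replicate 3. The log2 fold change was -0.36 ± 0.19 (SE; edgeR adjusted p = 0.163), and -0.17 without control replicate 2, the highest library (adjusted p = 0.519). Vwf is also made by platelet precursors, and the 8 markers of that lineage summed to 5.05 to 6.50 CPM in control and 4.45 to 5.60 CPM in stretch libraries, with 3 of the 8 abundant enough to test and none of them called.

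Thbd, Procr and Tfpi2 made up 3 of the 4 increases. Thbd, which encodes the thrombin receptor thrombomodulin in a single exon (chromosome 2, 148404471 to 148408188), had 212, 218 and 206 CPM in control and 363, 259 and 302 CPM in stretch libraries. The control values lay close together, and the stretch values were all higher and more spread, with replicate 1 at the top. Thbd rose 1.45-fold, from 212 ± 6.15 to 308 ± 52.2 CPM (SD, n = 3 per group; log2 fold change 0.54 ± 0.11, SE; edgeR adjusted p = 0.00406). Without stretch replicate 1, the library with the most hepatocyte transcripts, the log2 fold change was 0.41 (adjusted p = 0.00422).

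Procr, the receptor that presents protein C to the thrombin-thrombomodulin complex (chromosome 2, 155751217 to 155755478), rose as well. It had 163, 161 and 147 CPM in control and 205, 196 and 238 CPM in stretch libraries. Stretch replicate 4 was the highest, and the groups did not overlap. The increase was 1.36-fold, from 157 ± 8.83 to 213 ± 22.2 CPM (SD, n = 3 per group; log2 fold change 0.44 ± 0.08, SE; edgeR adjusted p = 0.00233). Thbd and Procr are the 2 endothelial receptors of the protein C pathway, and protein C itself (Proc) was scarce, at 0.39, 0.16 and 0.52 CPM in control and 1.74, 0.62 and 0.41 CPM in stretch libraries (edgeR adjusted p = 0.109).

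Tfpi and Tfpi2, which encode inhibitors built from Kunitz domains, went in opposite directions. Tfpi2, whose product inhibits plasmin and other proteases and acts on tissue factor with factor VII only weakly (chromosome 6, 3962595 to 3968354), had 74.7, 89.9 and 90.9 CPM in control and 198, 122 and 201 CPM in stretch libraries. Stretch replicate 2 lay well below the other stretch libraries and above each control library. Tfpi2 rose 2.04-fold, from 85.2 ± 9.08 to 173 ± 44.8 CPM (SD, n = 3 per group), the largest change of the 9 genes (log2 fold change 1.03 ± 0.18, SE; edgeR adjusted p = 0.00207). Of all genes tested, 96.7% had a log2 fold change at or below its value.

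Tfpi, the main inhibitor of tissue factor with factor VII and of factor X (chromosome 2, 84432860 to 84476775), had 169.8, 162 and 163 CPM in control and 143, 130.01 and 136 CPM in stretch libraries. The values were tight within each group and did not overlap. Tfpi fell 1.21-fold, from 165 ± 4.12 to 137 ± 6.61 CPM (SD, n = 3 per group; log2 fold change -0.27 ± 0.05, SE; edgeR adjusted p = 0.00258). The decrease did not pass against a minimum change of 1.2-fold (glmTreat adjusted p = 0.489). Per kilobase of coding length the ratio of Tfpi to Tfpi2 was 0.91, 0.72 and 0.72 in control and 0.29, 0.43 and 0.27 in stretch libraries. The deposited values are per gene, and the annotation lists 10 transcripts of Tfpi, so its secreted and membrane-anchored forms were not separated.

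Pros1, encoding protein S (chromosome 16, 62854334 to 62929340), was the most abundant of the 9 genes. It had 1059.6, 961 and 1042 CPM in control and 995, 874 and 944 CPM in stretch libraries. Stretch replicate 1 lay above control replicate 3, so the groups overlapped. The log2 fold change was -0.12 ± 0.06 (SE; edgeR adjusted p = 0.151). With library sizes alone as scaling it was -0.22 and passed (edgeR adjusted p = 0.0121).

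Thbs1 encodes thrombospondin-1, an adhesive glycoprotein that binds CD47 and CD36 and can activate latent TGF-beta (chromosome 2, 118111922 to 118127133). It had 256, 206 and 319 CPM in control and 368, 307 and 358 CPM in stretch libraries. Control replicate 4 lay above stretch replicate 2, and the other control libraries lay below each stretch library. The increase was 1.32-fold, from 261 ± 56.7 to 344 ± 32.7 CPM (SD, n = 3 per group; log2 fold change 0.40 ± 0.14, SE; edgeR adjusted p = 0.0492). The call was lost without control replicate 2 (adjusted p = 0.135), control replicate 3 (log2 fold change 0.26, adjusted p = 0.112), stretch replicate 1 (0.114) or stretch replicate 4 (0.134), and with DESeq2 (adjusted p = 0.0728). It was also lost with library sizes alone (log2 fold change 0.30, adjusted p = 0.108), upper-quartile factors (0.0570), robust dispersion (0.107) or a minimum change of 1.2-fold (glmTreat adjusted p = 0.249). The annotated noncoding gene Gm29233 lies on the opposite strand and shares 208 bases (3.42%) of the exons of Thbs1, and nothing in the labels or file headers says whether the counting used strand. No other member shared exon bases with another annotated gene.

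**Figure D2:**
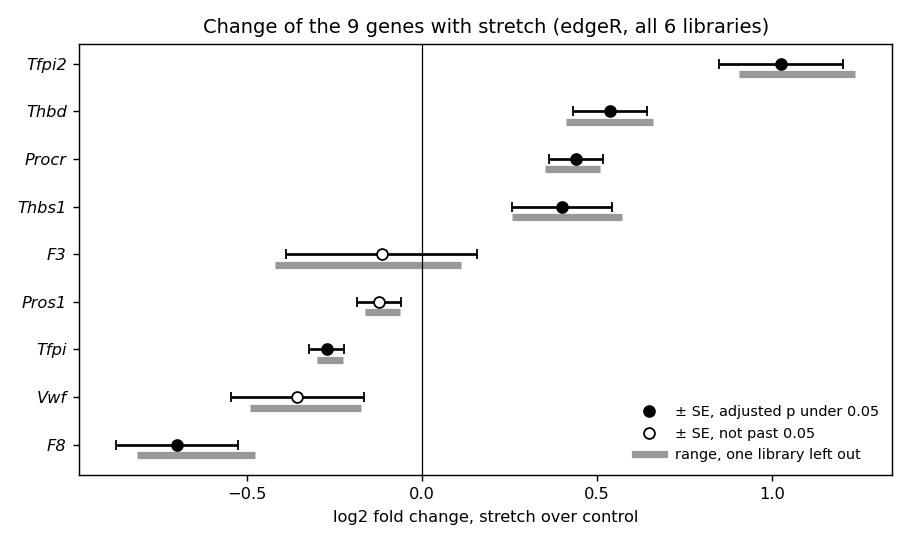
Log2 fold change of stretch over control (x axis) for the 9 genes, as circles with SE, filled where the edgeR adjusted p was under 0.05, and grey bars for the range when each of the 6 libraries was left out in turn. Tfpi2 lies highest at 1.03 and F8 lowest at -0.70, and the grey bar of F3 alone crosses 0.

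Levels of different genes were set side by side per length, as the deposited RPKM (reads scaled to coding length and library depth). In control libraries Pros1 stood first at 298 ± 14.2 RPKM (SD, n = 3), then Procr at 99.5 ± 4.39. Thbd (54.4 ± 1.53), Tfpi2 (53.9 ± 6.54), F8 (46.6 ± 10.8), Thbs1 (42.9 ± 9.67) and Tfpi (41.6 ± 0.48) followed, each with a range that overlapped that of its neighbour in the order. F3 at 22.3 ± 6.48 and Vwf at 0.63 ± 0.13 were lowest, each apart from its upper neighbour. Vwf, a common marker of large-vessel endothelium, was the single member below 1 RPKM.

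After stretch the order changed in the middle. Pros1 (257 ± 12.3 RPKM) and Procr (127 ± 11.8) remained first and second. Tfpi2 (103 ± 25.0) came next with a range that overlapped that of Thbd (74.1 ± 11.5). Thbs1 (53.2 ± 4.10), Tfpi (32.4 ± 1.07) and F8 (27.1 ± 4.63) followed, each apart from its upper neighbour, and F8 overlapped with F3 (19.4 ± 7.50). Vwf stayed lowest at 0.47 ± 0.09 (all SD, n = 3). The ratio of F8 to Vwf per length was 76.4, 76.7 and 67.5 in control and 70.7, 50.1 and 55.2 in stretch libraries. The ratio of Pros1 to Thbd was 5.67, 5.01 and 5.76 in control and 3.12, 3.84 and 3.55 in stretch libraries. The ratio of F3 to Thbd overlapped between the groups, with 0.43, 0.28 and 0.53 in control and 0.15, 0.43 and 0.25 in stretch libraries.

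**Figure D3:**
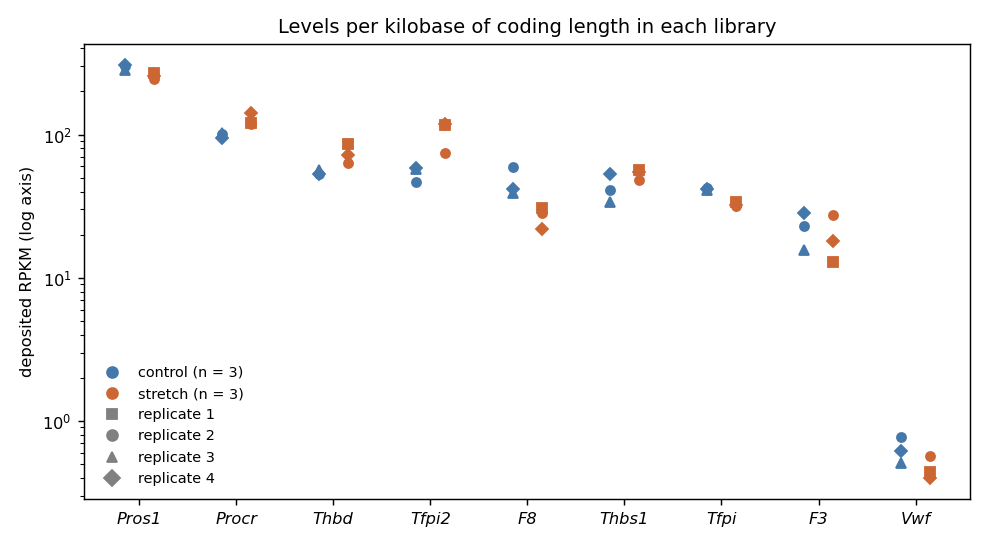
Deposited RPKM (y axis, log scale) of the 9 genes in each control and stretch library, ordered by the control mean, with marker shape giving the replicate number. Pros1 lies above 240 RPKM and Vwf below 1 RPKM in each library, and Tfpi2 moves from the level of Thbd toward that of Procr.

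Over the 6 libraries the genes whose log2 CPM followed Tfpi2 most closely among 11135 compared were Adamts1, Chst2 and Fzr1, with Pearson's r of 0.999, 0.997 and 0.997. For Tfpi they were D10Jhu81e, Mov10 and Nnt, with r of 1.00, 0.998 and 0.996. These values describe 6 libraries in 2 groups, and many genes that differ between the groups reach high values. Adamts1 is also on the list of thrombospondin partners below, since its protease can cleave thrombospondin-1.

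Of 82 other genes of the clotting pathway, 73 were abundant enough to test, and 22 were called higher and 17 lower (53.4%, against 44.0% of all genes tested). Without control replicate 2 the number called was 25 rather than 39. The other single libraries left out gave between 28 and 36. By list, the share called was 54.5% for soluble clotting factors and for heparan sulfate genes. It was 53.3% for export, carboxylation and storage, 66.7% for thrombin receptors, 75% for protein S partners and 90% for transcription factors. Cleavage and clearance had 42.9%, plasma anticoagulants 20%, and thrombospondins and their partners 14.3%. The lists held 3 to 15 tested genes each, and were chosen with earlier results of these data known.

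Soluble clotting factors of the plasma rose in part. Of 14, 11 were tested, 6 were higher, 0 lower (at an edgeR adjusted p under 0.05), and 5 did not pass, with a median log2 fold change of 2.11 against -0.01 over all genes tested. The fibrinogen gene Fgb had 5.96, 3.62 and 9.35 CPM in control and 80.7, 13.3 and 14.3 CPM in stretch libraries (log2 fold change 2.51, edgeR adjusted p = 0.0210). Fga had 1.80, 1.36 and 3.78 CPM in control and 32.0, 4.14 and 5.12 CPM in stretch libraries (log2 fold change 2.57, edgeR adjusted p = 0.0293). For both, stretch replicate 1 was far above the rest, as it was for the hepatocyte markers, whose part in the result was not tested. Without it the log2 fold changes were 1.14 (adjusted p = 0.0203) and 1.01 (adjusted p = 0.0658).

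The number called higher in this list was 2 without stretch replicate 1, 1 without control replicate 2, 1 without control replicate 3 and 3 without control replicate 4. It was 7 without stretch replicate 2 and 8 without stretch replicate 4. With all 6 libraries it was 1 with limma-voom, 1 with robust dispersion and 2 with glmTreat at 1.2-fold. The other settings with all 6 libraries gave between 5 and 8. Fgb lost its call without control replicate 2 or 3 (edgeR adjusted p = 0.0800 and 0.0714), and so did Fga (adjusted p = 0.108 and 0.0933). F13a1, the A subunit of factor XIII, which macrophages and platelets also make, had 0.29, 0.20 and 0.06 CPM in control and 0.66, 0.80 and 0.85 CPM in stretch libraries (log2 fold change 2.07, edgeR adjusted p = 0.00965). It passed in each of the 6 fits with 1 library left out. Of the 9 macrophage markers in the table, none at 0 in all 6 libraries, 7 were tested and 6 were higher. Their part in the F13a1 result was not tested.

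Of 6 plasma anticoagulants and cofactors, 5 were tested, 1 rose and 0 fell. This was Serpind1, the gene of heparin cofactor II, with 2, 4 and 7 raw counts in control and 17, 21 and 13 in stretch libraries (edgeR adjusted p = 0.0267). Its call was lost without control replicate 2 (adjusted p = 0.0961), control replicate 3 (0.0743), stretch replicate 1 (0.0650), stretch replicate 2 (0.0742) or stretch replicate 4 (0.0534). Hepatocytes are the known source of this protein, and the sum of their markers was higher in the same libraries. Its part in the result was not tested.

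Thrombin receptor genes fell in part. Of 4 protease-activated receptors 3 were tested, 2 fell and 0 rose. F2r, the gene of PAR1, had 465, 388 and 467 CPM in control and 366, 324 and 323 CPM in stretch libraries, without overlap (log2 fold change -0.38 ± 0.08, SE; edgeR adjusted p = 0.00630). F2rl3, the gene of PAR4, had 12.3, 11.5 and 15.5 CPM in control and 10.7, 6.38 and 6.42 CPM in stretch libraries (log2 fold change -0.74 ± 0.21, SE; edgeR adjusted p = 0.0201). The F2rl3 call was lost without control replicate 4 (adjusted p = 0.0751), stretch replicate 2 (0.0610) or stretch replicate 4 (0.0740). With glmTreat at 1.2-fold, 0 genes of this list were called lower, so both F2r and F2rl3 lost their calls.

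Genes for export, carboxylation and storage of clotting proteins were tested in 15 of 15 cases, with 2 higher and 6 lower. The number higher was 1 with library sizes alone as scaling, and 1 without control replicate 2, 3 or 4 or stretch replicate 1 or 4. Rab27a and Rab3d, small GTPases found on the Weibel-Palade bodies that store von Willebrand factor, fell by log2 fold changes of -1.34 ± 0.20 and -0.80 ± 0.07 (SE; edgeR adjusted p = 0.000940 and 0.000104). Rab27a had 5.84, 4.31 and 4.64 CPM in control and 1.51, 2.18 and 2.13 CPM in stretch libraries. Rab3d had 25.9, 23.1 and 22.99 CPM in control and 14.4, 13.7 and 13.4 CPM in stretch libraries. Vkorc1l1, a vitamin K reductase that can serve the carboxylation of protein S, rose from 18.7, 18.9 and 16.7 CPM to 29.0, 26.5 and 23.9 CPM (log2 fold change 0.55 ± 0.09, SE; edgeR adjusted p = 0.00126). Rab27a, Rab3d and Vkorc1l1 kept their direction and call in each fit with 1 library left out. The other vitamin K genes of this list, Vkorc1 and Ggcx, were called lower. Their log2 fold changes were -0.26 and -0.24 (edgeR adjusted p = 0.00763 and 0.0382), and they were singled out after their values were seen.

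Of 9 genes for cleavage and clearance of von Willebrand factor and factor VIII, 7 were tested, 3 fell and 0 rose. This was 42.9% called, against 44.0% of all genes tested. The scavenger receptor genes Stab1 and Stab2 had log2 fold changes of -0.53 and -0.24 (edgeR adjusted p = 0.00197 and 0.0303). Stab1 and Stab2 are also 2 of the sinusoidal markers. Stab2 lost its call without control replicate 2 (adjusted p = 0.0837), control replicate 4 (0.0905), stretch replicate 2 (0.0657) or stretch replicate 4 (0.0864). Adamts13, which cleaves von Willebrand factor, had too few counts to be tested.

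Among protein S partners, 4 of 5 were tested, 1 rose and 2 fell. Mertk, a receptor kinase that protein S can activate, had 310.2, 317 and 270.02 CPM in control and 474, 501 and 475 CPM in stretch libraries (log2 fold change 0.69 ± 0.07, SE; edgeR adjusted p = 0.000134). Gas6, the related ligand of the same receptors, fell from 232, 231 and 191 CPM to 158, 168 and 158 CPM (log2 fold change -0.44 ± 0.08, SE; edgeR adjusted p = 0.00238). Neither gene's groups overlapped. Tyro3, another receptor of the family, fell as well (log2 fold change -0.31, edgeR adjusted p = 0.0265), and its adjusted p was between 0.0528 and 0.0822 when any 1 of the 6 libraries was left out.

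Among thrombospondins and their partners 7 of 8 were tested, 1 rose and 0 fell. The increase was in Adamts1, from 109, 124 and 126 CPM to 236, 165 and 239 CPM (log2 fold change 0.83 ± 0.13, SE; edgeR adjusted p = 0.00146). Of 11 genes for heparan sulfate, the surface sugar that holds antithrombin and tissue factor pathway inhibitor, 11 were tested, 3 rose and 3 fell, and with library sizes alone as scaling 2 were higher and 5 lower. The core protein gene Sdc4 had a log2 fold change of 0.51 ± 0.08 and the sulfotransferase gene Hs6st1 0.31 ± 0.06, while the chain-building gene Ext2 had -0.28 ± 0.05 (SE; edgeR adjusted p = 0.00138, 0.00485 and 0.00193). Against a minimum change of 1.2-fold, Hs6st1 and Ext2 lost their calls (glmTreat adjusted p = 0.287 and 0.463). In that setting 1 heparan sulfate gene was higher and 0 were lower.

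Transcription factors known to act on F3 or Thbd were tested in 10 of 10 cases, with 8 higher and 1 lower. The lower gene was Gata2, picked out after its values were seen (log2 fold change -0.30, edgeR adjusted p = 0.0316), and the number lower was 0 without control replicate 2, 3 or 4 or stretch replicate 1 or 2. Egr1 had 36.8, 31.7 and 39.4 CPM in control and 169.9, 108 and 138 CPM in stretch libraries (log2 fold change 1.94 ± 0.16, SE; edgeR adjusted p = 7.61e-05). Myc and Rela had log2 fold changes of 0.75 ± 0.06 and 0.45 ± 0.05 (SE; edgeR adjusted p = 7.46e-05 and 0.000227). Klf2, a flow-induced activator of Thbd, had 5.89, 5.83 and 6.26 CPM in control and 7.68, 11.1 and 9.11 CPM in stretch libraries (log2 fold change 0.63, edgeR adjusted p = 0.00672), and was singled out after its values were seen. Klf4, also singled out afterwards, was the 1 gene of this list not called either way. It had 21.0, 16.1 and 17.2 CPM in control and 16.4, 19.4 and 16.1 CPM in stretch libraries (log2 fold change -0.07, edgeR adjusted p = 0.670). F3 itself did not pass.

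**Figure D4:**
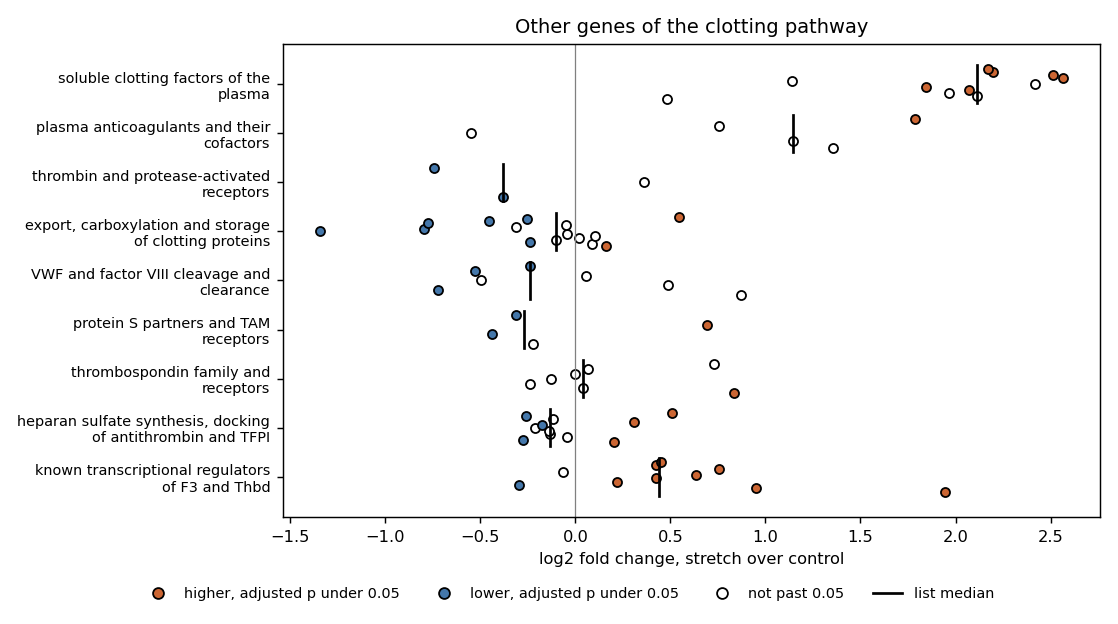
Log2 fold change of stretch over control (x axis) for the 73 other clotting pathway genes tested, 1 circle per gene, by list (y axis), orange or blue where the edgeR adjusted p was under 0.05 and white otherwise, with a black line at each list's median. Plasma clotting factors lie far to the right, with a median of 2.11, and the thrombin receptors called lie left of 0.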

How the data were processed

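Gene expression was measured by RNA sequencing (TruSeq) in 6 libraries, grouped by their sample labels into 3 control and 3 stretch libraries. The authors deposited raw counts per gene and RPKM values. TopHat2 (2.1.0), featureCounts, edgeR and the GRCm38 (mm10) build are listed in the submitters' processing notes. The sources used here do not give the annotation, any filter or the use of strand. The authors' deposited comparison table holds log2 fold changes, log2 CPM, a likelihood ratio score, and a p-value with its false discovery rate, per the file headers.

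The raw counts went into edgeR 4.0.16 (R 4.3.3), with filterByExpr, TMM factors and glmQLFTest between groups. P-values were adjusted by Benjamini-Hochberg over 14222 of 23337 genes. The SE is the absolute log2 fold change divided by the square root of F. CPM uses TMM-scaled library sizes. The common biological coefficient of variation was 0.12. GENCODE vM21 (GRCm38) gave exons and overlaps. Marker sums were compared by exact permutation. Steps were tested on simulated data.

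The members and gene lists were chosen with earlier results of these data known. All members were named. In each other list up to 3 called genes with the smallest p were named (1 of them is not reported here), and for the called member with the smallest p in each direction the 3 genes with the highest Pearson r of log2 CPM, with a mean of at least 1 (prior count 2). Alternatives were RLE, upper-quartile and library-size scaling, no filter, a filter of 1 CPM in 3 libraries, DESeq2 1.42.0, limma-voom (limma 3.58.1), robust dispersion, glmTreat at 1.2-fold, a block for the replicate number, and the omission of each library in turn.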

Additional observations from a re-analysis of the deposited data

How the results depend on the processing

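When a change above 1.2-fold was asked for (glmTreat), the number called was 2537, with 1210 higher and 1327 lower, and it held 3 of the 9 members (Thbd, Procr and Tfpi2), of which 0 were lower, and 19 of the other pathway genes. With 1 library left out, 4756 to 5895 genes, 5 to 6 members and 25 to 36 other pathway genes were called. Of the 6 members called with all libraries, 5 were called in each of these fits, the exception being Thbs1. The share of all called genes that kept their call in each of these fits was not counted. The log2 fold change of F3 ranged from -0.42 (without stretch replicate 2) to 0.11 (without stretch replicate 1), and was also above 0 without control replicate 4 (0.08). Over the 31 genes that the naming rule gave, 440 of 494 values under alternatives kept direction and side of the threshold, 50 lost a call, 2 gained one and 2 reversed, and the cause was not tested. The order of levels per length was the same with TMM-scaled CPM per kilobase (18 of 18 ranks). Both measures scale by coding length and differ mainly in a factor per library, so this comparison could hardly change the order.

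Both groups have a replicate 2 and a replicate 4, and nothing in the labels ties these to a shared isolation. Deviations from the group means correlated at 0.21 for number 2 and 0.11 for number 4 across genes, and control replicate 3 and stretch replicate 1, which share no number, correlated at 0.18, so these values do not show a pairing. A block for the replicate number takes up control replicate 3 and stretch replicate 1, which have no partner in the other group. The change in that fit therefore rests on replicates 2 and 4 of each group. With this block, 7 members were called instead of 6, since Vwf passed (log2 fold change -0.46, edgeR adjusted p = 0.0430). The fit called 5568 genes and 32 other pathway genes. The log2 fold change of Thbs1 was then 0.21 (adjusted p = 0.0210). The block left 1 higher gene for export, carboxylation and storage, 2 higher and 1 lower for heparan sulfate, and 0 lower among the transcription factors.

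Vwf, with 222 to 429 counts, was the least deeply measured member, and the other members had at least 1508 counts in each library. Counts from 1 to 10 were even in between 67.2% and 69.8% of cases in the 6 libraries, so intervals from counting alone are not given.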
